A study of Mus musculus with 18 samples.

Results

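The neurotrophins are secreted growth factors of neurons, and 6 genes of this family and its receptors were followed here across mouse cortical development: Bdnf, Ntf3, Ntrk2, Ntrk3, Ngfr and Sort1. The genes were chosen by name, as the 6 of the 54281 genes in the deposited count table whose identifiers carry these symbols in the GENCODE mouse M21 annotation, and all 6 passed the filter on low counts in both model fits. Bulk RNA was sequenced from cerebral cortex of male C57BL/6J mice, wild type (WT) or labelled Mcph1KO, at 4 stages that the labels call E17.5 (embryonic), P4 (postnatal), A6w and A18w, and from wild-type R1 mouse embryonic stem cells (mESC), an established line. Mcph1 encodes microcephalin, a chromosome-condensation and DNA-damage protein whose loss is known from microcephaly. Each of the 9 groups held 2 libraries, which makes 4 cortex libraries per stage. The labels do not say that the libraries came from separate animals or cultures, so p-values measure the spread between these libraries, which may be technical.

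Each neurotrophin is made as a precursor, is cleaved to a mature dimer and acts through a Trk receptor tyrosine kinase. Brain-derived neurotrophic factor (Bdnf) binds TrkB (Ntrk2), and neurotrophin-3 (Ntf3) binds TrkC (Ntrk3). All neurotrophins also bind the p75 neurotrophin receptor (Ngfr), which, together with sortilin (Sort1), receives the uncleaved precursors. Sortilin also sorts proteins inside the cell, Bdnf among them. In the cortex Bdnf is known for synapse maturation and for transcription that follows neuronal activity, and Ntf3 is known as a factor of early cortical development.

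On GRCm38, Bdnf (ENSMUSG00000048482.14) lies on chromosome 2 at 109674700 to 109727007, plus strand, with 11 annotated transcripts that start at 9 different positions. Ntf3 (ENSMUSG00000049107.13) lies on chromosome 6 at 126101412 to 126166910, minus strand. Ntrk2 (ENSMUSG00000055254.15) lies on chromosome 13 at 58806569 to 59133970, plus strand, and Ntrk3 (ENSMUSG00000059146.12) on chromosome 7 at 78175959 to 78738012, minus strand. Ngfr (ENSMUSG00000000120.6) lies on chromosome 11 at 95568818 to 95587735, minus strand. Sort1 (ENSMUSG00000068747.14) lies on chromosome 3 at 108284082 to 108361511, plus strand. The counts are sums over all transcripts of a gene, so they do not separate isoforms.

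The isoforms matter most for the Trk genes, since each makes a form with the kinase and a form without it. The coding sequences of 2 GENCODE transcripts of each are shown around the base at which they part, with the bases after the split in capitals.
Ntrk2-201: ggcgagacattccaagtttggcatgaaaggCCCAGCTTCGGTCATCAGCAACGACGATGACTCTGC
Ntrk2-202: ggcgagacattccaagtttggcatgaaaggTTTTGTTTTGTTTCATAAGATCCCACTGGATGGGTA
Ntrk3-201: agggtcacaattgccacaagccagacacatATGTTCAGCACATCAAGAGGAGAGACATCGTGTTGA
Ntrk3-202: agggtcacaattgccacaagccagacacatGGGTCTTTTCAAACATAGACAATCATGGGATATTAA
The Ntrk2 pair shares 1394 coding bases, after which Ntrk2-201 runs for 1072 more and Ntrk2-202 for 37. The Ntrk3 pair shares 1585, followed by 893 bases in Ntrk3-201 and 254 in Ntrk3-202. Each Ntrk2 or Ntrk3 value below is therefore the sum of signalling and truncated receptors.

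Whether reads of related members could be confused was read from the same sequences. The longest run shared by the coding sequences of the 2 ligands, and by those of the 2 Trk receptors, is shown in capitals with 15 bases on each side.
Bdnf-209: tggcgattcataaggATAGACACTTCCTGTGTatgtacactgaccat
Ntf3-201: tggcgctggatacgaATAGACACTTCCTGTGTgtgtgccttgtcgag
Ntrk2-201: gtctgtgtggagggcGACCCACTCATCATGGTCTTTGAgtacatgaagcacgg
Ntrk3-201: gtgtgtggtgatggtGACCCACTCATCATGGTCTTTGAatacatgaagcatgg
These runs are 17 and 23 bases long. Over whole transcripts, between 0% (Ntf3, Sort1) and 1.26% (Ngfr) of a member's 31-base words also occur in another gene on the same strand. On the opposite strand Bdnf shares 13.5% of its words, most of them with Gm45346, which held 0 to 12 counts per library. Sort1 shares 4.07% with Gm12523, which held 0 to 5. The library kit is not stated to mark strand, so reads of a gene and its antisense partner cannot be told apart.

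The transcription of Bdnf is the best known of the 6, and 1 of its 7 RefSeq promoter windows (300 bases each, GRCm38) held a sequence of interest. The stretch chr2:109692316-109692435, plus strand, ends at the base before the start of transcript Bdnf-209 and overlaps no annotated Bdnf exon.
Bdnf promoter stretch: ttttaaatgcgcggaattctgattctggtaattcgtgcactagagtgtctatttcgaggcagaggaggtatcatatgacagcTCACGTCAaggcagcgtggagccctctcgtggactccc
The capitals mark TCACGTCA, at position -38 from the start site at 109692436. It is a variant of the cyclic AMP response element TGACGTCA, to which the activity-regulated factor CREB binds. Searched on both strands, TCACGTCA occurred in 0.441% of 32851 promoter windows and in no other window of the members, and TGACGTCA in 1.79% and in none of the members' windows. The shorter TGACG occurred in 20.8% of windows and, among the members, only inside this TCACGTCA, on the other strand. The E-box CACGTG, bound by USF factors, occurred in 7.15% of windows and in 1 of the 2 Ntf3 windows. The single windows of Ntrk2 and Ngfr held none of the 4 motifs. Ntrk3 and Sort1 had no window, so their promoters were not searched. These matches are descriptions of the letters in the windows.

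Library totals ran from 23531045 to 32041849 counts. Mcph1, the gene named by the genotype label, had no lower counts in Mcph1KO-labelled libraries: its levels as counts scaled to library size (CPM, the unit of all levels below) averaged 11.27 against 12.72 at E17.5, 11.5 against 14.07 at P4, 9.341 against 16.4 at A6w and 9.038 against 12.77 at A18w (WT first, n = 2 each). Gene-level counts do not show which part of the gene the allele removes, so groups are named as labelled throughout. Pluripotency markers summed to 5950 to 6620 CPM in mESC and to 6.838 to 16.04 CPM in cortex, as the labels state. Marker lists of neighbouring tissue varied between cortex libraries of a stage. Choroid plexus genes summed to between 5.134 and 1072 CPM. Striatal genes summed to 504.6 to 2232 CPM at A18w and 199 to 340 at A6w, and hippocampal and dentate genes to 63.56 to 378.6 CPM at A6w and A18w. In bulk tissue, fewer cells of a type and less RNA per cell cannot be told apart.

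Among the ligands, Bdnf and Ntf3 took different courses. Ntf3 peaked at P4, when Bdnf was still low, and Bdnf rose between P4 and A6w, when Ntf3 fell. Bdnf was measured at 2.35 and 4.17 CPM in the E17.5 WT libraries and at 2.33 and 3.25 CPM in those labelled Mcph1KO. At P4 the values were 4.12 and 4.39 CPM in WT and 2.14 and 5.52 CPM in Mcph1KO, which overlaps the range at E17.5. At A6w they were 31.1 and 80.8 CPM in WT and 43.0 and 49.1 CPM in Mcph1KO, so that the lowest A6w library was above the highest library of either earlier stage. At A18w they were 22.8 and 44.5 CPM in WT and 39.7 and 40.3 CPM in Mcph1KO, within or below the A6w range.

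Between P4 and A6w Bdnf rose 12.6-fold (log2 difference 3.65 ± 0.37 SE, 4 libraries per stage, edgeR quasi-likelihood test, Benjamini-Hochberg adjusted p = 2.85e-06). Between E17.5 and P4 the log2 difference was 0.43 ± 0.36 (adjusted p = 0.371), with a 95% interval of -0.35 to 1.20. Between A6w and A18w it was -0.47 ± 0.32 (adjusted p = 0.752). The rise was of similar size in each genotype taken alone, at 3.72 in WT and 3.59 in Mcph1KO. The A6w level rested on a wide spread, with an SD of 21.24 CPM about a mean of 51.01 CPM (n = 4).

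Ntf3 was measured at 3.11 and 3.08 CPM in the E17.5 WT libraries and at 1.709 and 1.496 CPM in those labelled Mcph1KO. At P4 it reached 7.02 and 9.41 CPM in WT and 8.98 and 14.1 CPM in Mcph1KO, every value above every E17.5 value. At A6w it was back at 2.07 and 0.437 CPM in WT and 2.38 and 1.07 CPM in Mcph1KO, all below P4. The A18w libraries gave 0.0470 and 1.71 CPM in WT and 0.861 and 2.13 CPM in Mcph1KO. The lowest of these, A18w WT replicate 1, held a single Ntf3 count (exact 95% Poisson interval 0.0253 to 5.57 counts, counting error only), against 12 counts in the next lowest cortex library.

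The P4 peak of Ntf3 passed the test on both sides. From E17.5 to P4 it rose 4.36-fold (log2 2.12 ± 0.60, edgeR adjusted p = 0.0151), and from P4 to A6w it fell 6.6-fold (log2 -2.72 ± 0.62, adjusted p = 0.00234). The rise is the less certain: its adjusted p was 0.0562 without E17.5 WT replicate 1, 0.0511 without E17.5 Mcph1KO replicate 1 and 0.253 in WT alone (log2 1.41), against 0.0394 in Mcph1KO alone (log2 2.84). From A6w to A18w the log2 difference was -0.35 ± 0.63 (adjusted p = 0.935).

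**Figure D1:**
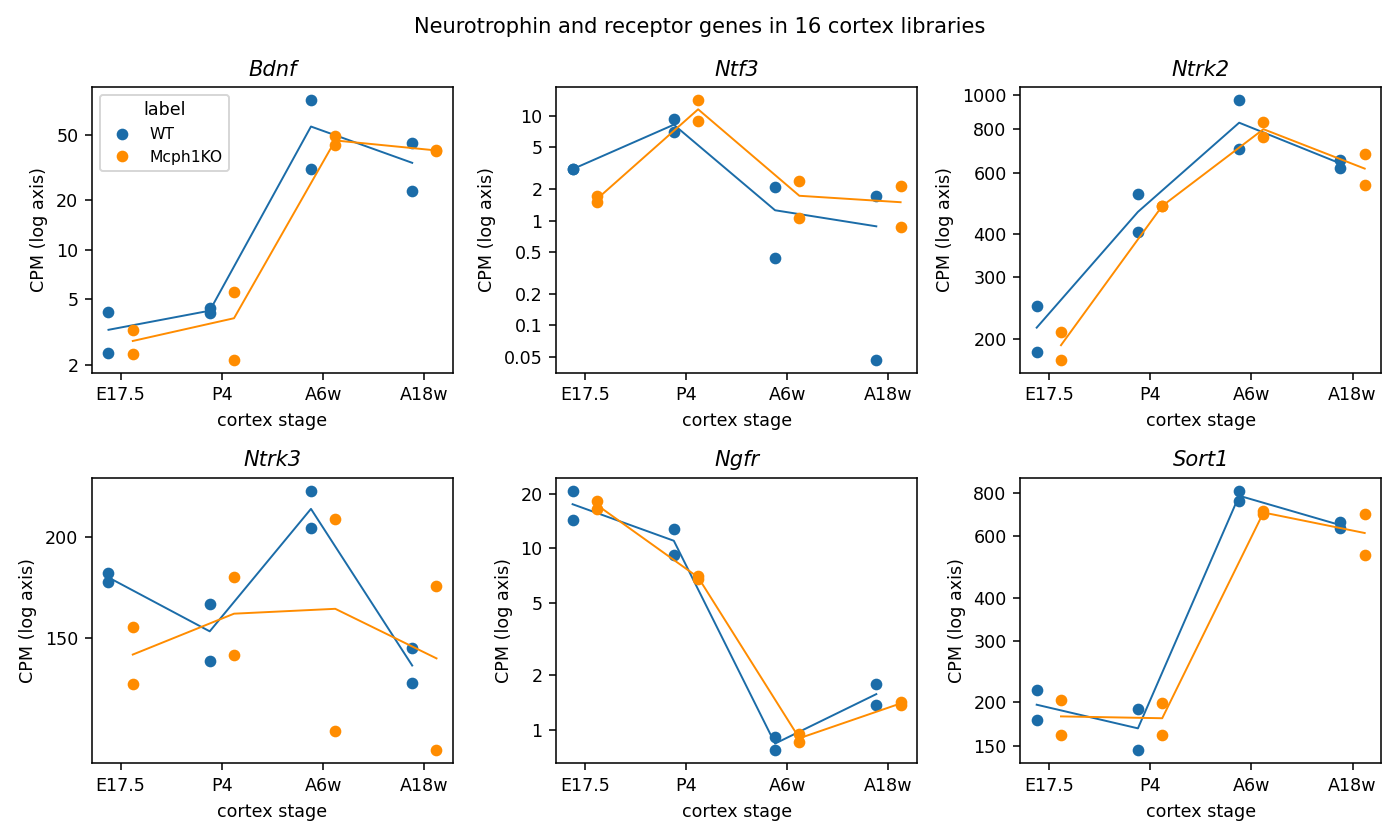
CPM (log axis) of each of the 6 genes in the 16 cortex libraries by stage, 1 point per library, with lines through the mean of each genotype label. Bdnf and Sort1 were higher in all 4 A6w libraries than in any P4 library, Ngfr was lower, Ntf3 was highest at P4, and the Ntrk3 stages overlapped.

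The 2 Trk receptors also differed in their courses. Ntrk2 rose at both steps up to A6w, and no step of Ntrk3 passed the test. Ntrk2 was measured at 183 and 248 CPM (WT) and 174 and 209.2 CPM (Mcph1KO) at E17.5, and at 406 and 520 CPM (WT) and 482 and 481 CPM (Mcph1KO) at P4. At A6w it was 701 and 968 CPM in WT and 761 and 838 CPM in Mcph1KO. At A18w it was 620 and 654 CPM in WT and 553 and 679 CPM in Mcph1KO. The ranges of E17.5, P4 and A6w did not overlap, and all A18w values lay above P4 and below A6w.

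Ntrk2 rose 2.32-fold from E17.5 to P4 (log2 1.22 ± 0.14, edgeR adjusted p = 8.56e-05) and 1.73-fold from P4 to A6w (log2 0.79 ± 0.14, adjusted p = 0.00043). The step from A6w to A18w was -0.38 ± 0.14 on the log2 scale, which had a p of 0.0192 before adjustment and 0.437 after it. Markers of astrocytes, which carry much of the truncated TrkB of the cortex, summed to 438.2 to 700 CPM at E17.5, 984 to 1509 at P4, 4140 to 5089 at A6w and 3469 to 4033 at A18w. Their part in the Ntrk2 values was not tested.

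Ntrk3 was measured at 176 and 181 CPM (WT) and 154 and 131 CPM (Mcph1KO) at E17.5, and at 165 and 140 CPM (WT) and 143 and 179 CPM (Mcph1KO) at P4. At A6w it was 205 and 228 CPM in WT and 115 and 211 CPM in Mcph1KO. At A18w it was 132 and 145 CPM in WT and 109 and 174 CPM in Mcph1KO. Every stage overlapped every other, and A6w Mcph1KO replicate 1 lay far below the other 3 libraries of its stage.

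The 3 steps of Ntrk3 were -0.03 ± 0.19, 0.26 ± 0.19 and -0.42 ± 0.19 on the log2 scale (edgeR adjusted p = 0.929, 0.249 and 0.531). The 95% interval from E17.5 to P4, was -0.43 to 0.38, which includes modest changes in either direction. Without A6w Mcph1KO replicate 1 the second step was 0.45 with an adjusted p of 0.0398, so 1 library decides whether Ntrk3 counts as higher at A6w than at P4.

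The 2 receptors of precursor forms moved apart. Ngfr, the p75 receptor, fell at both steps up to A6w, and Sort1, its sortilin partner, rose at the second. Ngfr was measured at 14.3 and 20.8 CPM (WT) and 16.5 and 18.3 CPM (Mcph1KO) at E17.5, and at 9.17 and 12.9 CPM (WT) and 7.07 and 6.79 CPM (Mcph1KO) at P4. At A6w it was 0.771 and 0.909 CPM in WT and 0.944 and 0.854 CPM in Mcph1KO, from 19 counts upward. At A18w it was 1.79 and 1.36 CPM in WT and 1.42 and 1.38 CPM in Mcph1KO. The ranges of the 4 stages did not overlap.

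Ngfr fell 1.99-fold from E17.5 to P4 (SE 0.18 on the log2 scale, edgeR adjusted p = 0.00102) and 9.99-fold from P4 to A6w (log2 -3.32 ± 0.21, adjusted p = 4.85e-08). The first fall was -0.67 with an adjusted p of 0.0815 in WT alone and -1.32 with an adjusted p of 0.00474 in Mcph1KO alone. From A6w to A18w the log2 difference was 0.76 ± 0.21, with a p of 0.00299 before adjustment and 0.253 after it. Markers of 2 other cell types known for p75 fell with Ngfr from P4 to A6w, with 5 of 6 genes of each list called lower, but did not both follow it at the other steps. Meningeal fibroblast markers summed to 372.3 to 852.1 CPM at E17.5, 272.2 to 516 at P4, 27.98 to 91.43 at A6w and 15.82 to 59.05 at A18w. Basal forebrain cholinergic markers summed to 30.86 to 77.83, 11.23 to 59.38, 1.448 to 3.159 and 6.226 to 20.01 CPM at these stages. From E17.5 to P4 no cholinergic gene was called (median log2 difference 0.40), and from A6w to A18w the meningeal median was -0.67, with no gene called. Subplate neuron markers summed to 67.72 to 97.58, 85.45 to 170, 60.88 to 212.6 and 113 to 168.6 CPM at these stages. Their P4 and A6w ranges thus overlapped. The part of these cells in the Ngfr values was not tested.

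Sort1 was measured at 216 and 177 CPM (WT) and 203 and 161 CPM (Mcph1KO) at E17.5, and at 145 and 191 CPM (WT) and 161 and 199 CPM (Mcph1KO) at P4. At A6w it was 811 and 759 CPM in WT and 694 and 711 CPM in Mcph1KO. At A18w it was 658 and 635 CPM in WT and 531 and 696 CPM in Mcph1KO. The 2 early stages overlapped, as did the 2 late ones, and no early library came near a late one.

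Sort1 rose 4.27-fold from P4 to A6w (log2 2.09 ± 0.14, edgeR adjusted p = 9.2e-08), with log2 differences of -0.12 ± 0.14 before that step and -0.24 ± 0.14 after it (adjusted p = 0.509 and 0.663). Excitatory neuron markers, which belong to the cells that make most cortical Bdnf, summed to 901.4 to 1384 CPM at E17.5, 957.6 to 1443 at P4, 4914 to 6614 at A6w and 4316 to 5250 at A18w, although 3 of the 6 genes of that list fell from P4 to A6w. Myelinating oligodendrocyte markers summed to at most 150.9 CPM at E17.5 and P4 and to at least 4237 CPM at A6w and A18w. The part of these cells in the Bdnf and Sort1 values was not tested. The counts do not separate Sort1-203 from Sort1-201, which lacks the following 99-base exon, chr3:108355472-108355570, plus strand, printed whole and without capitals.
Sort1-203 extra exon: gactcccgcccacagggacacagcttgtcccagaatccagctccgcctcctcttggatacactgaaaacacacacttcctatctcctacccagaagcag

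Counted over the members, 2 of 6 rose from E17.5 to P4 (Ntf3 and Ntrk2) and 1 fell (Ngfr), where 18.9% of all 19199 genes tested rose and 17.9% fell at an adjusted p under 0.05. From P4 to A6w 3 of 6 rose (Bdnf, Ntrk2 and Sort1) and 2 fell (Ntf3 and Ngfr), where 27.3% and 27.8% of all genes did. From A6w to A18w edgeR called none of the 6, where 0.135% of all genes were called in either direction. Before adjustment 3 members had a p under 0.05 there (Ntrk2, Ntrk3 and Ngfr), and DESeq2 called 0 members. With the late stages set against E17.5, 3 of 6 were higher (Bdnf 14.4-fold, Sort1 3.61-fold and Ntrk2 3.52-fold) and 1 was lower (Ngfr 15.3-fold), where 33.5% and 35.5% of all genes did so. The medians of the members' log2 differences were 0.20, 0.53, -0.37 and 0.92 in these 4 comparisons, beside 0.03, -0.06, -0.01 and -0.04 over all genes. So large a share of genes changed between stages that the number of members called is not unusual, and the members are described here by their sizes and directions. The first 3 comparisons share the libraries of the stage between them.

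In the test as described, Ntf3 and Ntrk3 were the members not called between E17.5 and the late stages. For Ntrk3 the log2 difference was 0.02 ± 0.16 (edgeR adjusted p = 0.914). For Ntf3 it was -0.77 ± 0.52 (adjusted p = 0.201), and the call depended on the processing: it was made with no filter on low counts (-0.79, adjusted p = 0.00825) and with the replicate number as a block (-1.08, adjusted p = 0.0089). The value also depended on single libraries, and was -1.81 with an adjusted p of 0.00491 without A18w WT replicate 2. It was 0.0044 in the libraries labelled Mcph1KO alone and -1.55 (adjusted p = 0.0811) in WT alone.

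**Figure D2:**
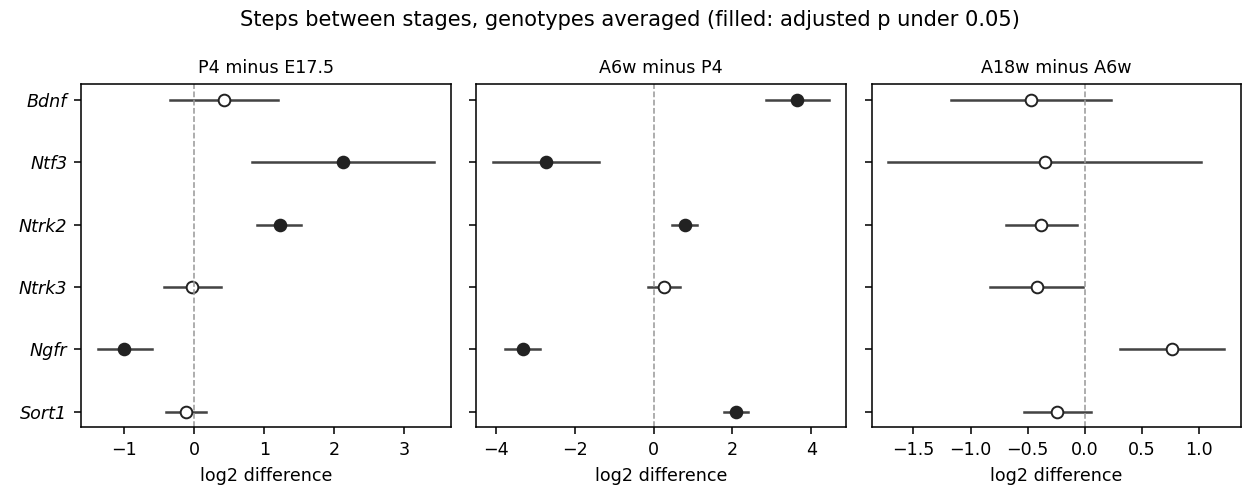
Log2 difference of each of the 6 genes at the 3 steps between cortex stages (points) with 95% confidence intervals (bars), filled where the edgeR adjusted p was under 0.05, each panel on its own scale. From P4 to A6w Bdnf (3.65) and Sort1 (2.09) lie to one side and Ntf3 (-2.72) and Ngfr (-3.32) to the other, and no point is filled from A6w to A18w.

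For the late libraries the ligands were set beside 2 marker sums, library by library, and neither ligand followed its sum throughout. The 3 libraries of highest hippocampal and dentate marker sums, A6w WT replicate 1 (378.6 CPM), A18w Mcph1KO replicate 2 (212 CPM) and A18w WT replicate 2 (173.8 CPM), held Ntf3 at 2.07, 2.13 and 1.71 CPM. The highest late Ntf3 value, 2.38 CPM in A6w Mcph1KO replicate 1, stood beside a marker sum of only 70.32 CPM. Without those 3 libraries the log2 difference of Ntf3 between the late stages and E17.5 was -2.38 (edgeR adjusted p = 0.000179), a check chosen after the data were seen. The 3 libraries hold 3 of the 4 highest late Ntf3 values, so their removal by itself makes the difference larger. Bdnf was set beside the immediate-early genes, which neurons switch on with activity. The A6w library of lowest Bdnf, WT replicate 1, also had the lowest immediate-early sum (851.2 CPM against 1702 to 2647 in the other A6w libraries). The library of highest Bdnf, A6w WT replicate 2, had the next lowest sum, 1702 CPM, and at A18w the lowest Bdnf value stood beside a sum of 2142 CPM within a range of 1926 to 2225. That A18w library, WT replicate 1, had the highest striatal marker sum, 2232 CPM, and the highest late Ngfr value. Whether dissection, activity or another source moved these values was not tested.

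**Figure D3:**
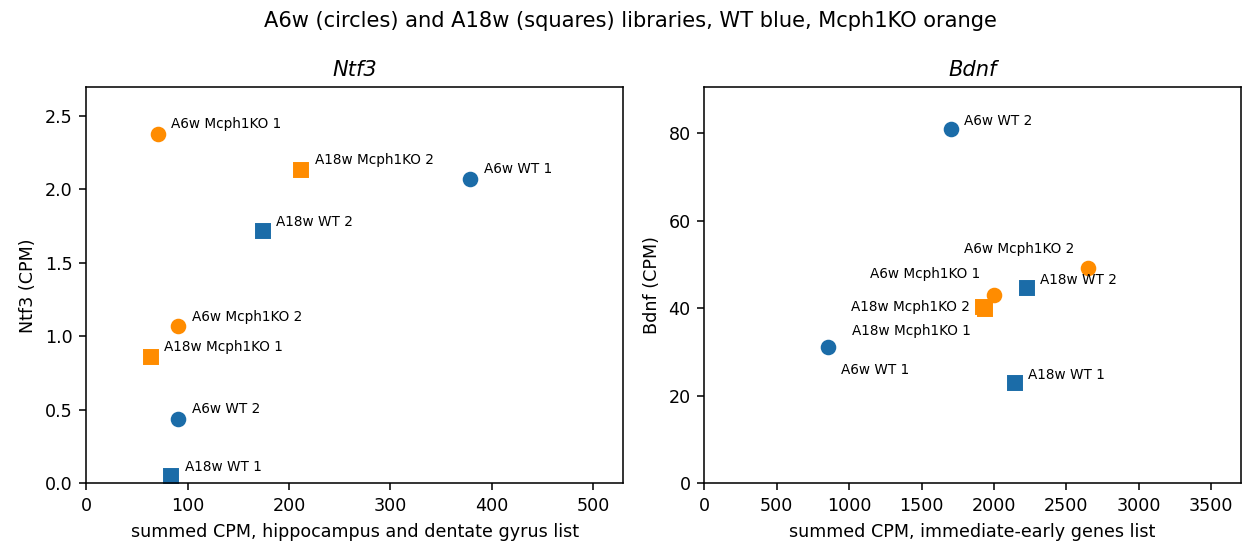
Left, Ntf3 (CPM) against the summed CPM of hippocampal and dentate gyrus markers, and right, Bdnf (CPM) against the summed CPM of immediate-early genes, in the 8 A6w and A18w libraries, 1 labelled point each. The sums are scaled to library totals alone, unlike the values of Ntf3 and Bdnf. The 3 libraries of highest hippocampal sum (173.8 to 378.6) hold Ntf3 at 1.71 to 2.13 CPM, beside 2.38 CPM in A6w Mcph1KO replicate 1 at a sum of 70.32, and the highest Bdnf value (80.8 CPM) stands at the next lowest immediate-early sum (1702).

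Levels of different genes were compared per kilobase of merged exons. At E17.5 the order of mean CPM per kb was Sort1 (25), Ntrk2 (10.5), Ntrk3 (5.32), Ngfr (5.06), Ntf3 (1.37) and Bdnf (0.486). Ntrk3 and Ngfr were neighbours there within their spread. At P4 the highest were Ntrk2 (24.5) and Sort1 (23), within their spread. Ntf3 (5.75) had moved next to Ntrk3 (5.19), again within the spread, and stood above Ngfr (2.6) and Bdnf (0.651). At A6w the order was Sort1 (98.3), Ntrk2 (42.3), Bdnf (8.2), Ntrk3 (6.29), Ntf3 (0.868) and Ngfr (0.252). Bdnf and Ntrk3 were neighbours within their spread there, and Ntf3 and Ngfr overlapped through the lowest Ntf3 library. The means at A18w had the A6w order. Ntf3 (0.693) and Ngfr (0.431) were again within their spread there, as were Bdnf (5.93) and Ntrk3 (4.64). Bdnf thus went from the lowest mean at E17.5 to the third at A6w. The merged exons of Ntrk2 and Ntrk3 are much longer than any 1 of their transcripts, and with the longest transcript as the length Ntrk2 stood at 93.4 and Sort1 at 109 CPM per kb at A6w. With that length Ntrk3 (8.15) stood above Ngfr (5.06) at E17.5 without overlap, so the closeness of that pair depends on the length used. The P4 means of Ntrk3 (7.95) and Ntf3 (6.65) changed order with it but stayed within the spread. Ntrk2 (54) stood above Sort1 (25.5) at P4 with that length, without overlap.

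Ratios between members within a library do not depend on the scaling of libraries. These ratios were chosen after the values had been seen and are given without a test. There were 0.755 to 2.17 Bdnf counts per Ntf3 count at E17.5 and 0.239 to 0.587 at P4. At A6w there were 15 to 185 and at A18w 18.9 to 486, the last from the library with a single Ntf3 count. Ntrk2 counts per Ntrk3 count were 1.04 to 1.59 at E17.5, 2.46 to 3.71 at P4, 3.42 to 6.62 at A6w and 3.9 to 5.09 at A18w. Sort1 counts per Ngfr count were 8.53 to 15.1 at E17.5, 14.8 to 29.3 at P4, 735 to 1052 at A6w and 368 to 506 at A18w. The late cortex thus held at least 368 sortilin counts for each p75 count, and the E17.5 cortex a median of 10.6.

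The other genes of the pathway are described by lists, with the number called and the median log2 difference beside the all-gene values given above. Of 7 other neurotrophins and receptors tested (Ntf5, the gene of neurotrophin-4, was below the count filter in cortex), 3 rose and 1 fell from E17.5 to P4 (median 0.71), and 3 rose and 2 fell from P4 to A6w (median 0.37). The risers at the first step were the sortilin relatives Sorcs1 (0.94), Sorcs3 (0.71) and Sorcs2 (0.71), and Sorl1 fell (-0.45). At the second step Sorl1 (2.80) and Sorcs3 (1.19) rose. The p75-like Nradd (-2.91) fell there, as Ngfr did.

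Of 14 genes tested for precursor processing and release, 4 rose and 1 fell at the first step (median 0.25), and 6 rose and 1 fell at the second (median 0.16). The dense-core vesicle enzymes Pcsk2 (2.09 and 2.25), a proprotein convertase, and Cpe (1.19 and 1.45), carboxypeptidase E, rose at both steps. The vesicle-priming factor Cadps2 rose at the first (1.61). Pcsk1, another convertase of these vesicles, rose by 3.80 at the second, beside 3.65 for Bdnf. Mmp9, an extracellular protease that can cleave the precursor, fell at both steps (-1.47 and -2.26).

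Of 41 Trk adaptors and downstream kinases, 4 rose and 10 fell at the first step (median -0.10), and 10 rose and 15 fell at the second (median -0.06). At the first step the 4 of smallest adjusted p were the adaptors Crkl (-0.86), Shc1 (-0.76) and Gab1 (-0.57) and the kinase Mapk7 (-0.74), all lower. At the second they included Map2k1, the kinase MEK1, which rose (2.56), and Mapk7 (-1.94) and Gab2 (-1.57), which fell. Members of one cascade thus moved in both directions.

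Of 16 partners and effectors of p75, 3 rose and 2 fell at the first step (median -0.09), and 5 rose and 6 fell at the second (median -0.14). The adaptor Traf4 fell at both steps (-0.62 and -3.02), in the direction of Ngfr. Of the JNK genes, Mapk9 (0.67 and 1.03) and Mapk10 (0.48 and 1.45) rose at both steps. Mapk8, the other JNK gene listed, averaged 194.2 CPM at E17.5, 214.3 at P4 and 135.7 at A6w. The Nogo receptor component Lingo1 rose at the first step (0.92). The Nogo receptor Rtn4r rose at the second (1.71). The direction of Ngfr at the second step was thus that of 6 of the 16 genes.

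Of 14 regulators of Bdnf transcription, 6 rose and 5 fell at the first step (median 0.13), when no change of Bdnf passed the test. At the second step 7 rose and 1 fell (median 0.31). Mef2c (1.93), Camk4 (1.64) and Bhlhe40 (1.17) rose at the first step, and the neuronal-gene repressor Rest fell (-1.16). Bhlhe40 (2.93), Mef2d (1.19) and Srf (0.73) rose at the second, and Rest fell again (-1.11). Of 17 immediate-early genes, 8 rose and 4 fell at the first step (median 0.78) and 11 rose and none fell at the second (median 2.67). Arc (5.62), Egr4 (4.02), Egr1 (3.81) and Junb (3.50) rose at the step at which Bdnf rose. Egr4 (3.53), Egr1 (2.46) and Egr2 (4.50) had already risen at the first, and Dusp1 fell there (-1.08). The Egr2 value rests on very few counts at E17.5, where it averaged 0.1024 CPM, beside 2.419 CPM at P4.

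From A6w to A18w edgeR called no gene of these 6 lists, whose median log2 differences lay between -0.06 and 0.22 (the latter for the immediate-early genes).

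The comparison of the genotype labels asked whether the members differ in the libraries labelled Mcph1KO. No member passed the test at any stage: edgeR called 0 of 6 at E17.5, P4, A6w and A18w (adjusted p = 1 each), where 0% of all genes were called at each stage. Before adjustment 303, 718, 763 and 326 genes had a p under 0.05 at these stages, and among the members only Ngfr at P4. DESeq2 called 12, 23, 32 and 4 genes and no member. Averaged over the stages edgeR called 0 of 6, against 0.0521% of all genes (10 genes, 31 by DESeq2), and no member had a p under 0.05 before adjustment. For genotype by stage it called 0% of all genes (435 with a p under 0.05 before adjustment, 7 called by DESeq2), and the members had p between 0.224 and 0.891 before adjustment.

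The intervals give the sizes these data can bound. Averaged over stages, the log2 difference (Mcph1KO minus WT) was -0.06 for Ntrk2 (95% interval -0.27 to 0.16) and -0.06 for Sort1 (-0.27 to 0.14). It was -0.16 for Ntrk3 (-0.44 to 0.13) and -0.19 for Ngfr (-0.49 to 0.11). The ligands were less well determined, at -0.10 for Bdnf (-0.63 to 0.42) and 0.19 for Ntf3 (-0.74 to 1.12). The median over the members was -0.08, and that over all genes -0.00. At single stages the intervals of Ntf3 were wider still, for example -2.77 to 0.89 at E17.5. There both WT libraries (3.11 and 3.08 CPM) lay above both Mcph1KO libraries (1.709 and 1.496 CPM).

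Ngfr at P4 came nearest to a difference, with 9.17 and 12.9 CPM in WT above 7.07 and 6.79 CPM in Mcph1KO. The log2 difference was -0.67 (95% interval -1.22 to -0.12), with a p of 0.02 before adjustment and an adjusted p of 1. In the same libraries the meningeal fibroblast markers summed to 516 and 491.1 CPM in WT and to 275.8 and 272.2 CPM in Mcph1KO. Endothelial markers were lower in Mcph1KO too (168.9 to 198.9 CPM, and 259.5 to 259.7 in WT). So were pericyte and smooth muscle markers (165 to 188.6 CPM, and 264.9 to 294 in WT). Basal forebrain cholinergic markers (11.23 to 37.15 and 21.01 to 59.38 CPM) and subplate markers (85.45 to 148.1 and 102.1 to 170 CPM) overlapped. Striatal markers were higher in Mcph1KO (236.8 to 294.3 and 144.7 to 197.6 CPM). The part of these cells in the Ngfr difference was not tested.

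**Figure D4:**
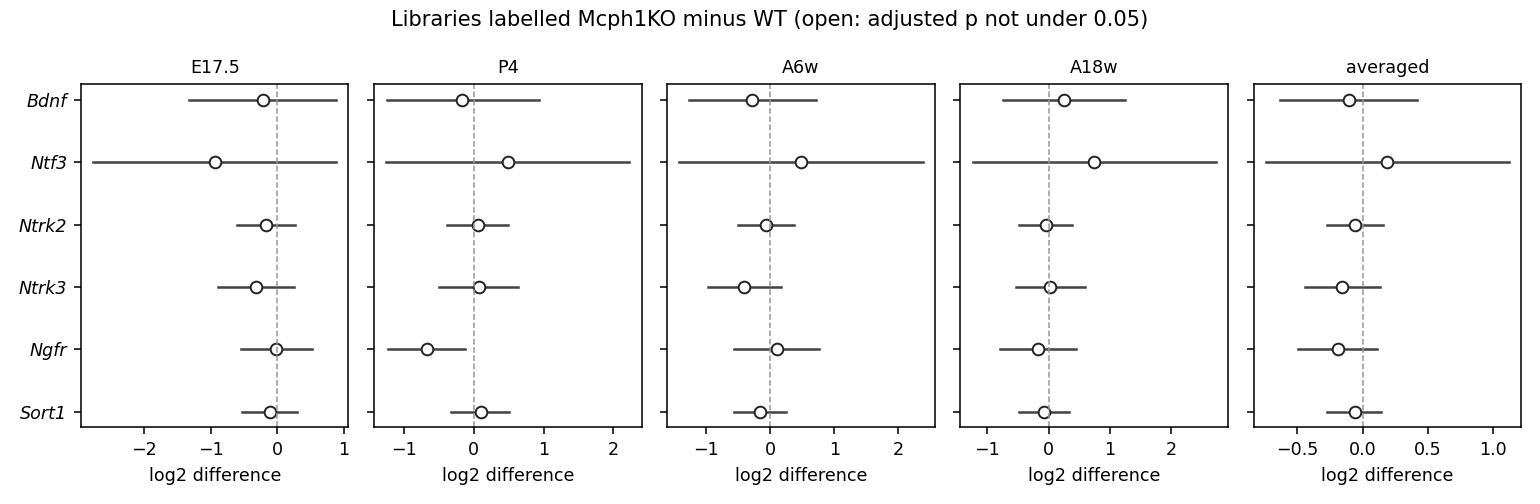
Log2 difference between the libraries labelled Mcph1KO and WT (points) of each of the 6 genes at each stage and averaged over stages, with 95% confidence intervals (bars), each panel on its own scale and with no adjusted p under 0.05. The intervals of Ntf3 are the widest (-2.77 to 0.89 at E17.5), and that of Ngfr at P4 (-1.22 to -0.12) lies below 0 before adjustment for the number of genes.

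Embryonic stem cells gave a level outside the nervous system. Set against E17.5 WT cortex within a model of the 10 wild-type libraries, 4 of 6 members were lower in mESC (Ntf3, Ntrk2, Ntrk3 and Sort1) and 1 was higher (Ngfr), where 35.3% and 32.7% of all 19466 genes tested were. The median over the members was -3.33, beside -0.06 over all genes. The Trk receptors were the farthest apart. Ntrk3 had 14 and 16 counts in the 2 mESC libraries (0.619 and 0.651 CPM) and 170 and 174 CPM at E17.5, a 269-fold lower level (log2 -8.07 ± 0.25, edgeR adjusted p = 2.49e-08). Ntrk2 had 42 and 52 counts (1.86 and 2.12 CPM) and 177 and 238 CPM at E17.5, 104-fold lower (log2 -6.70 ± 0.32, adjusted p = 6.22e-08). Both mESC libraries were far below both cortex libraries for these genes.

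Sort1 was 5.81-fold lower (log2 -2.54 ± 0.27, edgeR adjusted p = 1.53e-05), at 40.6 and 24.8 CPM in mESC and 209.3 and 170.5 CPM at E17.5. Ngfr stood at 43.9 and 25.5 CPM in mESC and at 13.8 and 19.98 CPM at E17.5, so that both mESC libraries were above both cortex libraries. Scaled to library totals alone, Ngfr stood at 42.2 and 22.4 CPM in mESC and at 15.2 and 23.3 CPM at E17.5, which overlap. It was 2.05-fold higher (log2 1.04 ± 0.33, adjusted p = 0.0163), a call that was lost without mESC replicate 1 (0.58, adjusted p = 0.168) or without E17.5 WT replicate 1 (0.79, adjusted p = 0.127). Ngfr counts in mESC, 993 and 627, thus exceeded those of Ntrk2 and Ntrk3, the reverse of their order in cortex.

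The ligands were low in mESC. Ntf3 had 0 and 8 counts (0 and 0.325 CPM) and 3.01 and 2.96 CPM at E17.5, a log2 difference of -4.12 ± 1.33 (edgeR adjusted p = 0.018). Without mESC replicate 1 it was -3.20 with an adjusted p of 0.0858. Bdnf had 15 and 56 counts (0.663 and 2.28 CPM) and 2.27 and 4.02 CPM at E17.5, a log2 difference of -1.08 ± 0.62 (adjusted p = 0.146), with the higher mESC library level with the lower cortex library. Without mESC replicate 2, which left a single mESC library assumed to vary like the other groups, it was -2.23 with an adjusted p of 0.037.

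Of 8 other neurotrophins and receptors 1 was higher in mESC and 4 were lower (median -0.67). Ntf5, the gene of neurotrophin-4, was the higher one, with 75 and 78 counts in mESC and 2 and 1 at E17.5 (edgeR adjusted p = 0.000134). Sorcs1 and Sorcs3 had no count in either mESC library and 1124 and 784 counts over the 2 E17.5 libraries. Against a floor of 3 counts over the mESC group they were at least 337-fold and 235-fold lower, and Sorcs2 was lower by -3.01. Of the Trk adaptors and kinases 5 of 41 were higher and 26 lower (median -0.86), with Kidins220 (-4.78), Gab2 (-8.04) and Pik3r1 (-4.41) among those of smallest adjusted p. Of the p75 partners 5 of 16 were higher and 8 lower (median -0.44), of the processing genes 2 of 14 higher and 9 lower (median -2.54), and of the Bdnf regulators 3 of 14 higher and 9 lower (median -1.21). Rest (3.30) was among the regulators that were higher in mESC, and Arnt2 (-5.50) and Mef2c (6 and 7 counts in mESC, -9.87) among those lower. The immediate-early list had 6 higher and 6 lower of 17 (median 0.73). With Sorcs1, Sorcs3 and the other genes of at most 1 mESC count at their bounds, the medians stay the same, since those bounds lie on the same side of them.

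The genes whose course over the 16 cortex libraries was most like that of each member were found by the root mean square difference in centred log2 CPM among 13652 genes, as a description without a test. For Bdnf they were Lrrk2 (0.407), C1ql3 (0.437) and Vxn (0.441), and C1ql3 averaged 6.69, 15.2, 124 and 92.7 CPM from E17.5 to A18w. For Ntf3, which ranged over 6.86 log2 units, the nearest genes were less close, among them Nkd2 (0.912) and Chl1 (0.942). Ntrk2 was followed most closely by Atp6v0a1 (0.138), Trim9 (0.15) and Tmem63c (0.159), and Ntrk3 by Pcnx (0.136), Unc79 (0.167) and Arhgef12 (0.17). For Ngfr they were the cell-cycle inhibitor gene Cdkn1c (0.398), Ppp1r14b (0.411) and Rps6ka6 (0.423), and Cdkn1c averaged 126, 61.2, 8.39 and 8.22 CPM. For Sort1 they were the synaptic exchange-factor gene Kalrn (0.158), Plekhg5 (0.183) and Actr1b (0.184). Kalrn averaged 202 CPM at E17.5, 168 at P4, 746 at A6w and 580 at A18w, beside 189, 174, 744 and 630 for Sort1.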

How the data were processed

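The authors deposited estimated counts per gene for 18 libraries, made with Salmon 1.4.0 after Trimmomatic 0.39 and FastQC on GRCm38.p6 (mm10), per the submitters' processing notes. They were whole numbers, so none were rounded. Salmon divides reads with several matches among them by estimate. Symbols came from GENCODE M21 (54107 of 54281 identifiers), promoter windows from RefSeq. The test was the edgeR 4.0.16 quasi-likelihood method under R 4.3.3 (low counts removed by filterByExpr at 10 per library and 15 in total, TMM scaling, 1 mean per group, Benjamini-Hochberg adjustment over all genes, call under 0.05). One fit held the 16 cortex libraries (19199 genes, 8 residual degrees of freedom) and one the 10 wild-type libraries (19466 genes). CPM are TMM-scaled. No libraries of a group were copies (chi-square per degree of freedom 31.26 to 138.6). On simulated data 62% of 2-fold and 95% of 4-fold changes were recovered from P4 to A6w, 35% and 85% for genotype at P4, and 87% and 99% for genotype averaged. The simulation changed 100 genes of each size, all with a mean CPM of at least 1. In the data 10584 genes were called from P4 to A6w, so the simulated rates do not measure recovery at that step. Named genes were the 6 members, Mcph1, per list up to 4 called genes of smallest adjusted p, and the 3 genes nearest each member (mean CPM at least 1, no clone names). Mapk8 was named outside this rule, beside the other JNK genes. The members, lists and tests were chosen with earlier results of these data known. Each result was also computed with DESeq2 1.42.0, with RLE factors, unfiltered, with other sets of libraries, with the replicate number as a block and without each library in turn. Intervals of single counts cover counting error only. Some genes that this rule names are not reported here.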

Additional observations from a re-analysis of the deposited data

Results flagged for a closer look

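Each member was looked at for a library far from the other 3 of its stage, by the gap between the highest or lowest library and its nearest neighbour as a share of the range of log2 CPM. Of 24 such sets 3 exceeded the 95% limit for 4 libraries, and chance alone gives about 1 in 20. Bdnf at A18w had a ratio of 0.8293, with WT replicate 1 at 4.52 log2 CPM below the nearest library at 5.32. Ntrk3 at A6w had a ratio of 0.8454, with Mcph1KO replicate 1 at 6.85 log2 CPM below the nearest at 7.68. Ngfr at A18w had a ratio of 0.8467, with WT replicate 1 at 0.89 log2 CPM above the nearest at 0.58.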

How the results depend on the processing

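Of 894 values of single members under the alternatives, 283 belonged to differences called above: 274 of these kept direction and call, 9 kept the direction and lost the call, and none reversed. Of the 611 others, 550 kept direction and side, 8 became calls and 53 changed sign. The count of members called from E17.5 to P4 was 3, and 1 (Ntrk2) in WT libraries alone, where Ntf3 was at 1.41 and Ngfr at -0.67. For mESC against E17.5 it was 5, and between 3 and 6 with 1 library left out. The counts of members called with 1 library left out were 2 to 3 from E17.5 to P4, 5 to 6 from P4 to A6w and 4 to 5 from E17.5 to the late stages, and 0 elsewhere.

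Signs changed as follows, all for differences not called. With the replicate number as a block, Ngfr at E17.5 was at 0.01 and Ntrk3 at A18w at -0.01 (Mcph1KO minus WT). Without both E17.5 libraries numbered 1, Ntrk3 and Sort1 from E17.5 to P4 were at 0.01 and 0.03, while Ntf3 (2.17, adjusted p = 0.116) was no longer called. Ntrk3 from E17.5 to P4 was at 0.17 in Mcph1KO alone. From E17.5 to the late stages Ntrk3 was at -0.04 in WT alone and -0.07 without the 3 libraries high in hippocampal markers, and Ntf3 at 0.0044 in Mcph1KO alone. Without the 2 libraries high in striatal markers Ntf3 from A6w to A18w was at 0.38 and the members called stayed 0 and 4. Both of these sets of libraries were chosen after seeing the data.

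With 1 library left out, Ntrk3 ranged from -0.12 to 0.05 from E17.5 to P4 and from -0.11 to 0.11 from E17.5 to the late stages, and Ntf3 from -2.41 to 0.4 from A6w to A18w. For Mcph1KO minus WT at E17.5 the ranges were -0.59 to 0.24 for Bdnf, -0.37 to 0.07 for Ntrk2, -0.26 to 0.28 for Ngfr and -0.29 to 0.05 for Sort1. At P4 they were -0.99 to 0.37 for Bdnf, -0.11 to 0.25 for Ntrk2, -0.1 to 0.23 for Ntrk3 and -0.09 to 0.31 for Sort1. At A6w they were -0.81 to 0.57 for Bdnf, -0.25 to 1.98 for Ntf3, -0.28 to 0.2 for Ntrk2 and -0.01 to 0.23 for Ngfr. At A18w they were -0.15 to 0.81 for Bdnf, -0.2 to 4.86 for Ntf3, -0.2 to 0.09 for Ntrk2, -0.35 to 0.33 for Ntrk3, -0.35 to 0.04 for Ngfr and -0.28 to 0.1 for Sort1. Averaged over stages they were -0.31 to 0.11 for Bdnf, -0.04 to 1.22 for Ntf3 and -0.11 to 0.01 for Ntrk2. A lone library left in a group was assumed to vary like the other groups, and the cause of these changes was not tested.

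The labels do not say that replicate numbers mark a shared animal, litter or batch. The deviations of same-numbered libraries correlated at 0.478 (E17.5), 0.209 (P4), 0.0829 (A6w) and 0.295 (A18w). They were positive at every stage and lowest at A6w. The numbers were not taken as pairs because the labels do not give them as such. The main tests thus count the libraries of a stage as independent, and a shared source was not tested. With the number as a block, Ntf3 from E17.5 to the late stages (-1.08, adjusted p = 0.0089) and Bdnf in mESC against E17.5 (-1.18, adjusted p = 0.0183) became calls. With no filter on low counts they were called too (-0.79, adjusted p = 0.00825, and -1.11, adjusted p = 0.00306).

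Counts over all genes also moved. From A6w to A18w 26 genes were called, against 236 with DESeq2, 598 with no filter, 246 with the block, 0 with only the libraries compared or without the 2 striatal libraries, 128 without the 3 hippocampal ones, and 2 to 93 with 1 library left out. From E17.5 to P4 it was 7062, against 4476 without E17.5 WT replicate 1, 4619 without E17.5 Mcph1KO replicate 1, 2898 without both, and 3502 and 3594 in WT and Mcph1KO alone. No filter called 105 to 262 genes for genotype at single stages (0 with the filter), 124 averaged (10) and 466 for genotype by stage (0), and the block 4 to 7, 16 and 9. Low counts limit Ntf3 most, with 1 to 20 counts in 3 of the 8 late libraries, and 0 and 8 in mESC. Ngfr was low in the late libraries too, at 19 to 38 counts.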
